A study of Homo sapiens with 24 samples.

Results

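The comparison described here set 3 libraries of BT549 cells labelled KJ-PYR-9 + DEX against 3 libraries labelled KJ-PYR-9, so it asks what differed with DEX where the MYC inhibitor was given too. The members were chosen by these treatment labels alone, and the 6 libraries are 6 of 24 in the series, which holds 8 groups of 3. BT549 is an established human cell line from a triple negative breast cancer, and its genotype is labelled WT in every group used here. The KJ-PYR-9+DEX group received both agents, the KJ-PYR-9 group received the inhibitor, and the labels give KJ-PYR-9 as 40 µM for 3 h, dissolved in DMSO. Groups labelled DEX and VEH (vehicle), of 3 libraries each, came from the same experiment and appear below where the difference with DEX is set beside the same difference without the inhibitor. The labels neither spell out DEX nor give its dose or duration, and they do not say in which order the agents were added. They name the replicates biological without saying whether these were separate cultures, so p-values measure the spread between these libraries.

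MYC is a transcription factor that binds DNA as a pair with MAX, and KJ-PYR-9 is a small molecule made to disturb that pairing. Glucocorticoids are steroid hormones, and their receptor, encoded by NR3C1, moves to the nucleus once it holds its ligand, raises genes such as FKBP5, TSC22D3, PER1 and ZBTB16, and holds back many inflammatory genes driven by AP-1 and NF-kB. Because DEX is not spelled out, glucocorticoid-responsive genes are described here as a group of genes and not as proof of what the agent was. Immediate early genes such as FOS and EGR1 are switched on within minutes of growth factor or stress signals, without new protein synthesis, and most of their transcripts are short lived.

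With the inhibitor present, libraries given DEX had higher levels of glucocorticoid-responsive genes such as ZBTB16, TSC22D3 and FKBP5 and lower levels of immediate early, cytokine and stress genes such as FOS, IL6 and DDIT3. Of 13616 genes tested, 431 were higher in KJ-PYR-9+DEX (3.17% of those tested) and 597 were lower (4.38%), together 1028 genes or 7.55%, by limma at an adjusted p under 0.05. At least a 2-fold difference was seen in 244 of the higher and 328 of the lower genes. The values of the groups did not overlap in 3483 genes (25.6%). The median log2 fold change over all genes tested was -0.09. In bulk RNA, fewer cells of a kind and less RNA per cell cannot be told apart. The quasi-likelihood test of edgeR on the recovered whole reads called 1090 genes. With the replicate number as a block, 2018 genes passed, 795 higher and 1223 lower. The higher and lower genes were split 582 to 512 after quantile scaling, 735 to 673 in DESeq2 and 797 to 758 once trends on GC content and length were removed, against 431 to 597 here. Leaving out 1 KJ-PYR-9 library reduced the count to 639 (without replicate 1), 624 (without replicate 2) or 651 (without replicate 3). The alternative without KJ-PYR-9+DEX 3 and DEX 1, chosen after seeing the data, gave 1668.

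Promoter sequences of 3 genes that fell are shown because their letters hold elements known from textbooks for early and stress-responsive genes. The CArG box is bound by serum response factor, and TGACGTCA is the full cyclic AMP response element, bound by CREB and ATF proteins. Each line gives the 150 bases just before the RefSeq gene start (GRCh38.p14), 5′ to 3′ on the gene's own strand, with the element in capitals. EGR1, an early zinc finger factor, lies on the plus strand (chr5:138465329-138465478), PPP1R15A, which restores translation after stress, on the plus strand (chr19:48872271-48872420), and DUSP1, a MAP kinase phosphatase, on the minus strand (chr5:172771196-172771345).
EGR1: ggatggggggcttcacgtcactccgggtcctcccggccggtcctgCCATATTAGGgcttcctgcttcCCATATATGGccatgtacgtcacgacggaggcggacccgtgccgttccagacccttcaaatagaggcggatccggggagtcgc
PPP1R15A: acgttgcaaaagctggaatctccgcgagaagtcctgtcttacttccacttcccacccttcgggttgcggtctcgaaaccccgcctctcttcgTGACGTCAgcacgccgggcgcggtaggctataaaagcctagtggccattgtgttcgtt
DUSP1: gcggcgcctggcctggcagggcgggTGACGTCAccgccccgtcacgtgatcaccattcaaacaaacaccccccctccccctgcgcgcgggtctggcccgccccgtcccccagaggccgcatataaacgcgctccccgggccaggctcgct
The CArG boxes of EGR1 begin 105 and 83 bases before its start, and the TGACGTCA of PPP1R15A and of DUSP1 begins 58 and 125 bases before theirs. These matches describe letters in a window and are not measured binding sites.

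Across the wider promoter table, from 250 bases before to 50 bases after each start and on both strands, TGACGTCA stood in 30 of 463 lower genes with a promoter entry (6.48%) and in 1 of 302 higher genes (0.331%). Among all 10464 tested genes with an entry it stood in 347 (3.32%), and among all 27305 promoters of the table in 540 (1.98%). A CArG box stood in 8 of the lower genes (1.73%), 3 of the higher genes (0.993%), 106 of the tested genes (1.01%) and 351 of all promoters in the table (1.29%). Of 27 immediate early genes with an entry, 2 held the full cyclic AMP element and 2 a CArG box. Other elements were scanned too. The AP-1 site stood in 7.13% of the lower, 5.3% of the higher and 4.48% of the tested genes. For the E-box these shares were 10.6%, 10.9% and 10.1%, and for a short cyclic AMP element 42.3%, 20.2% and 34.5%. A short glucocorticoid response element stood in 27.6%, 31.8% and 29.1%, and the full one in 0 of the 302 higher genes.

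Library quality differed between the groups, and its part in the results was not tested beyond leaving out libraries. Recovered depth was 6.886 to 12.07 M reads in KJ-PYR-9+DEX and 21.17 to 26.92 M in KJ-PYR-9, so low genes were measured less precisely in the KJ-PYR-9+DEX group. Features without a gene symbol took 2.424% to 8.722% of reads in KJ-PYR-9+DEX and 1.761% to 5.445% in KJ-PYR-9. The correlation of log2 values between libraries of the KJ-PYR-9+DEX group was 0.9639 to 0.9838, and between KJ-PYR-9 libraries 0.9884 to 0.994. No 2 libraries held identical reads. Mesenchymal markers of the line were plentiful, with VIM at 10009 to 11136 normalized reads in KJ-PYR-9+DEX and 13108 to 14460 in KJ-PYR-9, while the epithelial CDH1 stood at 34.6 to 64.9 in KJ-PYR-9+DEX and 43.4 to 59.6 in KJ-PYR-9. The receptor gene PGR was at 0 in every KJ-PYR-9+DEX library and at 1.25 to 4.75 in KJ-PYR-9, and ERBB2 was present at 1096 to 1619 in KJ-PYR-9+DEX and 1074 to 1301 in KJ-PYR-9. EPCAM and ESR1 were not analysed here. Leukocyte markers were sparse: 3 of 19 could be tested, none passed, and the 9 listed summed to 241 to 364 in KJ-PYR-9+DEX and 286 to 362 in KJ-PYR-9. Of 10 endothelial markers 2 could be tested and none passed, and the 5 listed summed to 124 to 202 in KJ-PYR-9+DEX and 156 to 208 in KJ-PYR-9. No member of either list was called by edgeR or DESeq2 or had an unadjusted p under 0.05, and no listed member was at 0 in every library of a group.

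Glucocorticoid-responsive genes had the largest share of higher members among the lists with at least 5 tested genes. Among 28 tested members of a list of 32, 14 were higher and 2 lower, with a median log2 fold change of 0.76, beside 3.17% higher, 4.38% lower and a median of -0.09 over all genes tested. The same list had 22 higher in DEX against VEH, where 9.50% of all genes tested were higher and 8.02% lower. In the interaction, which is the DEX effect with KJ-PYR-9 minus that without it, 14 of the 28 were negative and 2, ZBTB16 and FKBP5, positive, beside 9.62% negative and 7.15% positive of all genes tested. The count of higher members was 10 without KJ-PYR-9+DEX replicate 1, the lowest of the alternatives. With the replicate block 15 members were higher and 5 lower.

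ZBTB16 (chr11:114059711-114256770), a zinc finger repressor that responds strongly to glucocorticoids, had 134, 147 and 204 normalized reads in KJ-PYR-9+DEX libraries, against 1.25, 1.19 and 1.62 in KJ-PYR-9 libraries. All 3 libraries with DEX were far above all 3 without. This was the largest rise among the named genes, at 6.09 ± 0.32 on the log2(value + 1) scale (SE, limma adjusted p = 2.02e-06), a scale that understates the change of genes this low. DEX alone gave 30.5, 18.2 and 16.7 reads and VEH 0.757, 0 and 1.56, so the level was higher again where the inhibitor was added. The interaction of ZBTB16 was 2.36 (adjusted p = 0.00577 by limma), but it was not called by edgeR (adjusted p = 0.33) or DESeq2 (adjusted p = 0.271).

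FKBP5 (chr6:35573590-35728583), a co-chaperone that lowers the receptor's own affinity for hormone, had 176, 164 and 136 reads in KJ-PYR-9+DEX, against 10.0, 4.16 and 5.67 in KJ-PYR-9. It rose by 4.45 ± 0.35 (limma adjusted p = 1.93e-05) with no overlap. In DEX libraries FKBP5 stood at 48.8, 31.0 and 44.9, against 9.46, 4.96 and 14.1 in VEH, and the interaction was 2.36 (limma adjusted p = 0.00835). By that test its rise was larger with the inhibitor present.

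TSC22D3 (chrX:107713221-107775988), also known as GILZ, is an anti-inflammatory leucine zipper protein. It had 1589, 1279 and 1395 reads in KJ-PYR-9+DEX, against 38.9, 22.6 and 37.3 in KJ-PYR-9, a rise of 5.42 ± 0.40 (limma adjusted p = 1.27e-05). Without the inhibitor the levels were 909, 552 and 413 in DEX against 32.5, 12.6 and 39.1 in VEH. Both pairs of groups were separated, and the interaction of 0.93 did not pass (limma adjusted p = 0.285).

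PDK4 (chr7:95583499-95596516), a kinase that shuts pyruvate dehydrogenase and so spares glucose, had 1350, 1029 and 1112 reads in KJ-PYR-9+DEX, against 27.6, 40.4 and 47.0 in KJ-PYR-9. The rise was 4.91 ± 0.37 (limma adjusted p = 1.39e-05). In DEX libraries it stood at 1797, 1195 and 992, close to the KJ-PYR-9+DEX level, while VEH libraries held 7.95, 3.05 and 10.9. The interaction was negative at -2.50 (limma adjusted p = 0.00813), and the KJ-PYR-9 libraries lay above the VEH libraries. KLF9, a Kruppel-like repressor induced by steroid and thyroid hormones, showed the same order: 1914, 1710 and 2028 in KJ-PYR-9+DEX against 398, 432 and 368 in KJ-PYR-9, with 2367, 2002 and 1625 in DEX against 199, 174 and 244 in VEH. KLF9 rose by 2.23 ± 0.17 (limma adjusted p = 1.6e-05), with an interaction of -1.04.

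**Figure D1:**
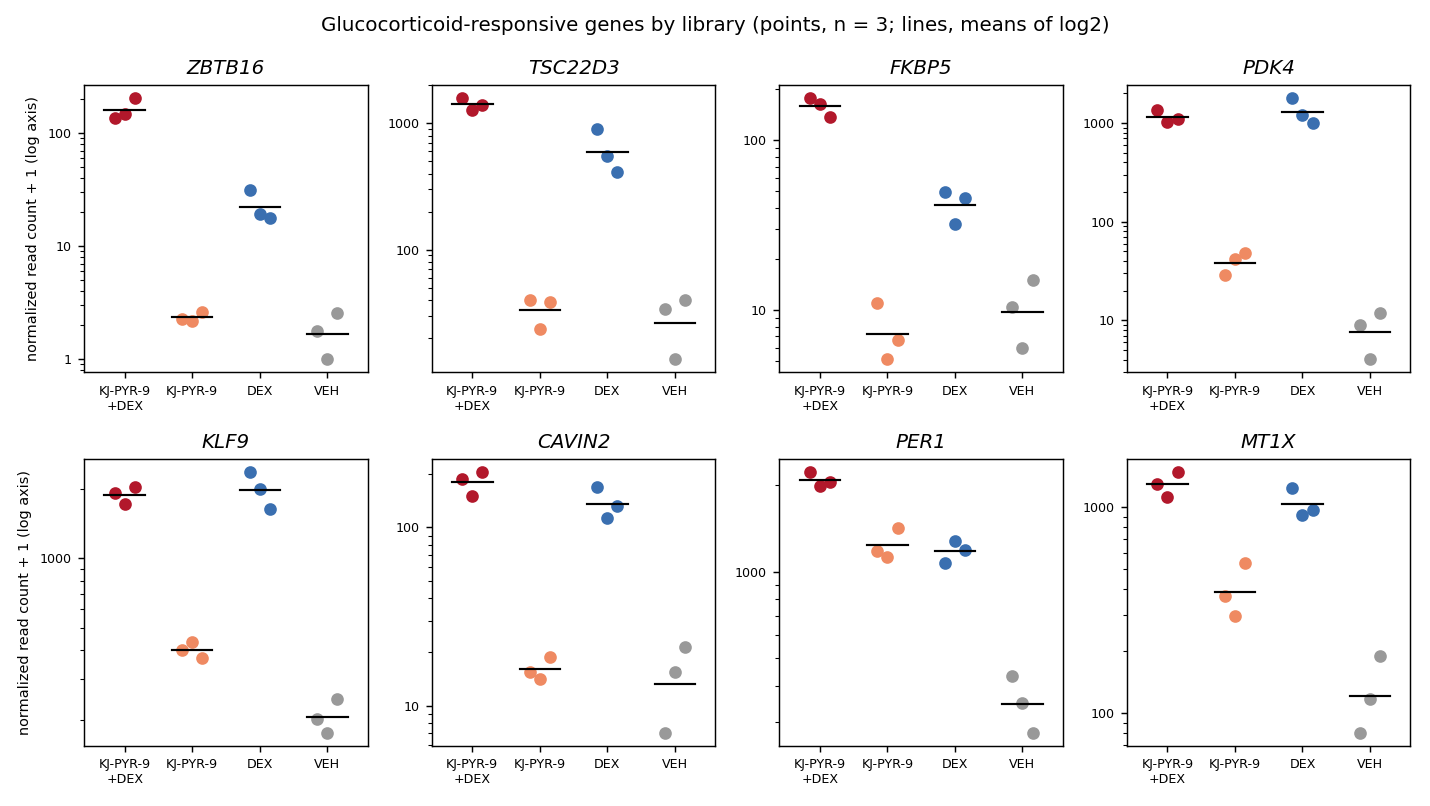
Normalized read counts plus 1 (log axes) of 8 glucocorticoid-responsive genes in every library, by group from KJ-PYR-9+DEX on the left to VEH on the right; points are libraries and lines are means on the log2 scale. In all 8 genes the KJ-PYR-9+DEX points lie above every KJ-PYR-9 point, and in ZBTB16, FKBP5, TSC22D3 and PER1 they are also above every DEX point.

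PER1, a clock gene with a receptor binding site, rose less. Its values were 2224, 1977 and 2042 in KJ-PYR-9+DEX against 1182, 1123 and 1416 in KJ-PYR-9, a log2 fold change of 0.75 ± 0.17 (limma adjusted p = 0.0195). The groups did not overlap, but the call was lost without KJ-PYR-9+DEX replicate 1, KJ-PYR-9 replicate 1 or KJ-PYR-9 replicate 2, with adjusted p values of 0.0695, 0.0792 and 0.0894. Other members that rose were CAVIN2 of caveolae (3.49), the transcription factors TFCP2L1 (2.85) and KLF15 (2.88), the thiamine transporter SLC19A2 (2.45), the lipase inhibitor ANGPTL4 (1.40) and NFKBIA (0.78), which encodes the cytoplasmic inhibitor of NF-kB. The 12 other tested members did not pass, among them ERRFI1 (0.86, limma adjusted p = 0.0615) and TNFAIP3 (-0.61, limma adjusted p = 0.179).

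The receptor gene itself was lower by value without passing the test. NR3C1 had 1494, 1598 and 845 reads in KJ-PYR-9+DEX, against 1954, 1842 and 1653 in KJ-PYR-9. The groups did not overlap, and the log2 fold change was -0.52 ± 0.24 (limma adjusted p = 0.261). With the replicate block NR3C1 passed (limma adjusted p = 0.0366), as it did once trends on GC content and length were removed (limma adjusted p = 0.015). Of 18 tested genes of receptor machinery, which includes its chaperones, FKBP5 was the 1 that rose and DNAJB1 the 1 that fell. Together they are 11.1% of the tested members, beside 7.55% called among all genes tested.

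DUSP1 and SGK1 are glucocorticoid-induced in many cells and were lower here. DUSP1 had 3097, 2095 and 2879 reads in KJ-PYR-9+DEX, against 5840, 4959 and 4822 in KJ-PYR-9. It fell by 0.97 ± 0.26 on the log2 scale (limma adjusted p = 0.0424), a call that was lost under 15 of 25 alternatives, with adjusted p values up to 0.151. In DEX libraries it stood at 6992, 7638 and 6478, against 550, 245 and 370 in VEH, so the 2 differences had opposite signs, with an interaction of -5.22 (limma adjusted p = 6e-06). SGK1, a serum and glucocorticoid regulated kinase, had 2210, 1908 and 1698 in KJ-PYR-9+DEX against 4926, 4552 and 4335 in KJ-PYR-9, and 17971, 15486 and 12035 in DEX against 962, 491 and 758 in VEH. Its log2 fold change was -1.25 ± 0.23 (limma adjusted p = 0.00684), and both genes also belong to the immediate early list.

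Metallothioneins, small proteins that bind zinc and copper and respond to metals and glucocorticoids, were higher in part. Of 10 tested members of that list 4 were higher and 1 lower, with a median of 0.39. Over all genes tested 3.17% were higher and 4.38% lower, with a median of -0.09. MT1M rose by 2.97, MT1X by 1.74, MT1E by 1.63 and MT2A by 0.95. In MT1X the values were 1304, 1116 and 1488 in KJ-PYR-9+DEX, against 369, 297 and 533 in KJ-PYR-9. The zinc exporter SLC30A1, which zinc itself induces, was the member that fell by limma (-1.66). It had 331, 471 and 387 reads in KJ-PYR-9+DEX, against 1133, 1110 and 1536 in KJ-PYR-9. The metallothioneins MT1G (-1.782, limma adjusted p = 0.0592) and MT1F (-1.505, limma adjusted p = 0.0579) were lower by value without passing. EdgeR called 2 members lower and DESeq2 3, and 4 were lower at an unadjusted p under 0.05. With the replicate block 4 members were lower. Near identical copies make the metallothionein levels less certain, and the count of higher members was 2 without KJ-PYR-9+DEX replicate 1, 2 or 3 or KJ-PYR-9 replicate 1 or 2.

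FOXO and nutrient response genes were split, with 6 of 18 higher and 4 lower (median 0.28). The share called was 55.6%, beside 7.55% of all genes tested. FOXO1, a transcription factor held back by insulin signalling, rose by 2.34 ± 0.21 (limma adjusted p = 5.23e-05), at 245, 248 and 350 in KJ-PYR-9+DEX against 65.2, 52.9 and 45.4 in KJ-PYR-9. TXNIP, which limits glucose uptake, rose by 2.61 and PIK3R1, a regulatory subunit of PI3 kinase, by 1.31. CITED2, a coactivator regulator, fell by 1.98, at 1466, 1168 and 1737 in KJ-PYR-9+DEX against 5405, 5842 and 5840 in KJ-PYR-9. The list shares 4 genes with the glucocorticoid-responsive list, and without KJ-PYR-9 replicate 1 the count of lower members was 2.

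Immediate early genes had the largest share of lower members among the lists with at least 5 tested genes. Of 40 members, all tested, 30 were lower by limma, with a median of -1.60, where 4.38% of all genes tested were lower. No member was higher by limma, edgeR or DESeq2 or at an unadjusted p under 0.05. Between 27 and 33 were lower under every alternative tried. In DEX against VEH the same list had 34 higher, where 9.50% of all genes tested were higher. In the interaction 36 were negative, beside 9.62% of all genes tested.

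FOS (chr14:75278828-75282230), the partner of JUN in the AP-1 complex, had 279, 157 and 257 reads in KJ-PYR-9+DEX, against 21736, 13909 and 16940 in KJ-PYR-9. It fell by 6.26 ± 0.30 on the log2 scale (limma adjusted p = 1.3e-06), the largest fall among the named genes. DEX libraries held 6528, 5629 and 5868 and VEH libraries 104, 64.9 and 153. Each agent alone was thus accompanied by high FOS, while the libraries given both stood slightly above VEH, and the interaction was -12.13 (limma adjusted p = 7.93e-08).

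EGR1, whose promoter with a pair of CArG boxes is printed above, had 955, 531 and 1073 in KJ-PYR-9+DEX against 30810, 21391 and 26951 in KJ-PYR-9. It fell by 5.00 ± 0.34 on the log2 scale (limma adjusted p = 8.59e-06). DEX libraries held 10857, 10815 and 11613 reads of EGR1, against 587, 369 and 1002 in VEH. NR4A1, an orphan nuclear receptor induced by many signals, fell by 5.68 ± 0.31 (limma adjusted p = 2.32e-06), at 273, 120 and 185 in KJ-PYR-9+DEX against 10981, 8028 and 9308 in KJ-PYR-9. NR4A2 (-4.85) and FOSB (-4.34) fell too, again with no overlap.

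IER3, an early gene linked to survival after stress, stood below the vehicle level. It had 114, 77.2 and 96.3 reads in KJ-PYR-9+DEX, against 3477, 2863 and 3644 in KJ-PYR-9, while DEX libraries held 1245, 1512 and 1643 and VEH libraries 716, 404 and 821. The log2 fold change was -5.11 ± 0.25 (limma adjusted p = 1.3e-06). ATF3, a stress-induced repressor of the ATF family, fell by 4.79 ± 0.15 (limma adjusted p = 5.07e-08), at 157, 167 and 191 in KJ-PYR-9+DEX against 5781, 4345 and 4287 in KJ-PYR-9. VEH libraries held 368, 286 and 342 reads of ATF3, above every KJ-PYR-9+DEX library. JUN fell by 2.73 and JUNB by 2.42. The 10 other members did not pass, among them MCL1 (0.02, limma adjusted p = 0.959), FOSL2 (-0.16, limma adjusted p = 0.644) and CCN1 (-0.73, limma adjusted p = 0.0749).

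**Figure D2:**
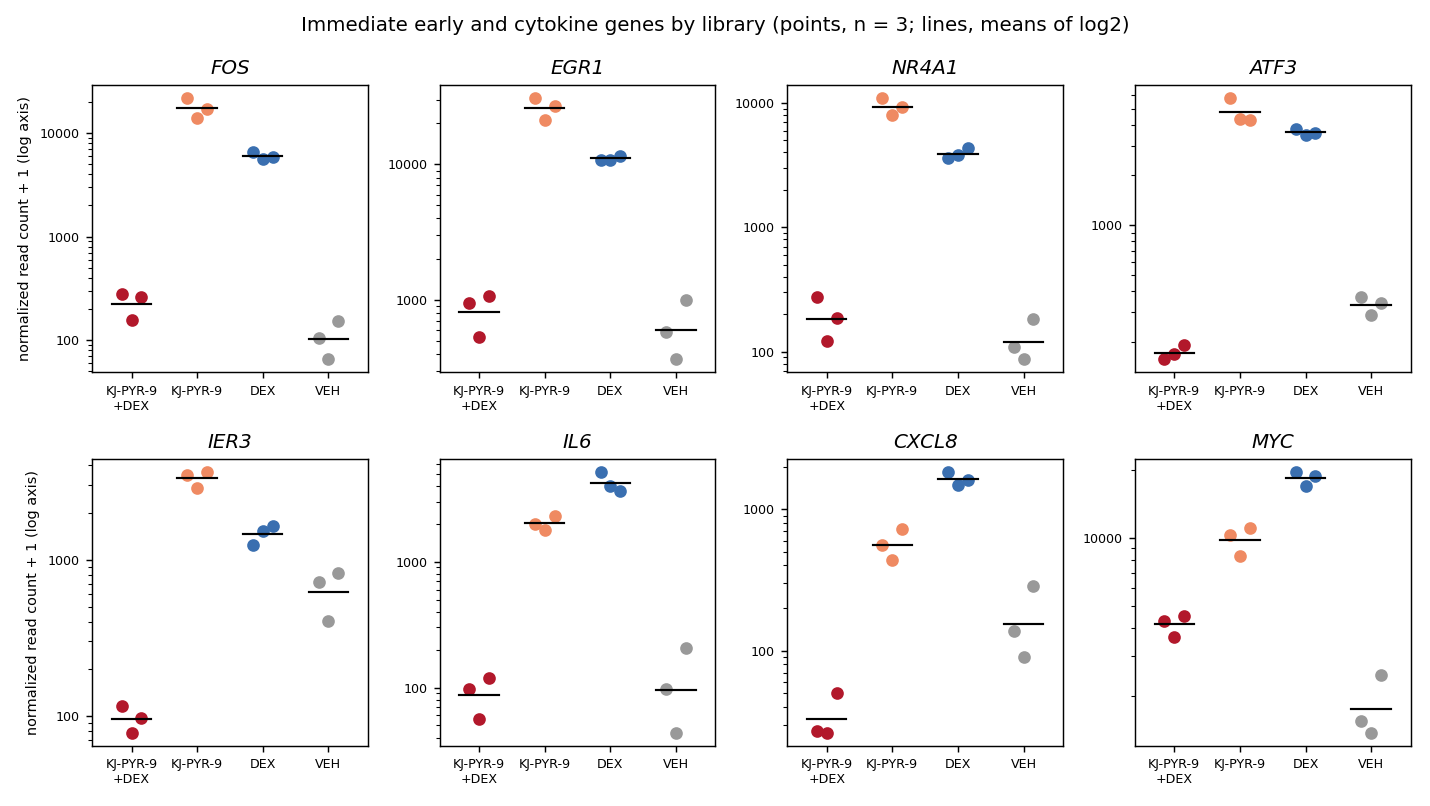
Normalized read counts plus 1 (log axes) of 8 immediate early and cytokine genes in every library, by group from KJ-PYR-9+DEX on the left to VEH on the right; points are libraries and lines are means on the log2 scale. The KJ-PYR-9 and DEX points stand high in each gene, and the KJ-PYR-9+DEX points fall near or below VEH in all but MYC, which sits between.

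MYC encodes the inhibitor's target and is itself an early gene. It had 4305, 3666 and 4510 reads in KJ-PYR-9+DEX, against 10272, 8283 and 11004 in KJ-PYR-9, and the groups did not overlap. The log2 fold change was -1.24 ± 0.21 (limma adjusted p = 0.00395). DEX libraries held 19573, 16916 and 18783 and VEH libraries 1551, 1378 and 2490, so the KJ-PYR-9+DEX level was still above vehicle by value. MAX, its dimer partner, had 698, 628 and 715 in KJ-PYR-9+DEX against 568, 613 and 638 in KJ-PYR-9, with overlap and a log2 fold change of 0.17 (limma adjusted p = 0.478). Of 11 tested members of the MYC network, MYC and MXD1, a MAX-binding repressor, were the 2 that fell, and none rose by limma or edgeR. The 2 are 18.2% of the tested members, beside 7.55% called among all genes tested. At an unadjusted p under 0.05 and by DESeq2 1 member rose. MXD1 fell by 1.58, at 100, 79.5 and 88.4 in KJ-PYR-9+DEX against 261, 245 and 303 in KJ-PYR-9.

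The 4 lists of growth and cell cycle genes, some of them known to be driven by MYC, had no called member by limma. Among all genes tested 7.55% were called, and both groups compared had received the inhibitor. None of 35 ribosome biogenesis genes and none of 54 cytosolic ribosomal protein genes passed by limma, with medians of -0.08 and -0.30. With the replicate block 19 of the ribosomal protein genes were lower, and DESeq2 called 7 lower. None of 30 E2F and DNA replication genes or of 32 mitosis genes passed by limma. Among the alternatives, at most 2 ribosome biogenesis, 2 E2F and 1 mitosis gene were lower. At an unadjusted p under 0.05, 2 ribosome biogenesis, 22 ribosomal protein, 4 E2F and 1 mitosis gene were lower and none was higher, and edgeR called 0 of them in the 4 lists. Among all genes tested, 2714 had an unadjusted p under 0.05.

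Cytokine and NF-kB genes were the second group that fell. Of 28 tested members 14 were lower and 1 higher, with a median of -0.91. The share called was 53.6%, beside 7.55% of all genes tested. Without KJ-PYR-9 replicate 3 the count of lower members was 9. IL6, a cytokine that activates STAT3, had 96.3, 55.3 and 118 reads in KJ-PYR-9+DEX, against 2001, 1795 and 2308 in KJ-PYR-9, a fall of 4.55 ± 0.46 on the log2 scale (limma adjusted p = 0.000129). DEX libraries held 5177, 4000 and 3625 reads of IL6 and VEH libraries 96.9, 42.7 and 203. The neutrophil chemokine CXCL8 fell by 4.09 ± 0.38 (limma adjusted p = 7.46e-05), at 26.1, 25.3 and 49.1 in KJ-PYR-9+DEX against 559, 436 and 717 in KJ-PYR-9, and also lay below VEH at 137, 89.3 and 288.

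CXCL2, CXCL3 and CXCL1 fell by 3.47, 2.01 and 0.77. PTGS2, the inducible cyclooxygenase, fell by 3.95 at low levels, 10.0, 0 and 1.97 in KJ-PYR-9+DEX against 47.7, 46.4 and 51.9 in KJ-PYR-9. LIF fell by 2.09. The subunits NFKB1 (-0.65), NFKB2 (-1.14) and REL (-1.46) were lower too, while NFKBIA was the single member that rose, at 3667, 3203 and 4170 in KJ-PYR-9+DEX against 2421, 1624 and 2482 in KJ-PYR-9. No member of the list rose without KJ-PYR-9+DEX replicate 1 or 3 or without KJ-PYR-9 replicate 1 or 2.

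MAPK feedback genes, the phosphatases and Sprouty proteins that MAP kinase activity itself induces, had 10 of 22 members lower and 1 higher (median -0.65), and with the replicate block 4 were higher. Among all genes tested 4.38% were lower and 3.17% higher. DUSP6, which removes phosphate from ERK, fell by 2.79 ± 0.30 (limma adjusted p = 0.000219), at 136, 85.2 and 157 in KJ-PYR-9+DEX against 768, 745 and 1079 in KJ-PYR-9. DUSP16 fell by 1.77, with 672, 583 and 611 in KJ-PYR-9+DEX against 2140, 2065 and 2166 in KJ-PYR-9. SPRY2 and SPRY1, which restrain receptor tyrosine kinase signalling, also fell (-1.53 and -1.64). DUSP7 was the member that rose (0.97), at 1169, 1291 and 1720 in KJ-PYR-9+DEX against 594, 633 and 918 in KJ-PYR-9, and none rose without KJ-PYR-9 replicate 1 or 2.

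Stress response genes were lower in part. Of 30 integrated stress and unfolded protein response genes 12 were lower and 0 higher by limma, with a median of -0.54, and 18 did not pass. The 12 are 40.0% of the list, beside 7.55% called among all genes tested. By edgeR none was higher, and DESeq2 and an unadjusted p under 0.05 gave 1 higher. DDIT3, the stress factor CHOP, had 96.3, 103 and 214 reads in KJ-PYR-9+DEX, against 1433, 1098 and 1399 in KJ-PYR-9, and fell by 3.33 ± 0.34 (limma adjusted p = 0.000138). VEH libraries held 229, 218 and 456 of DDIT3. PPP1R15A, with the printed cyclic AMP element, fell by 2.26 ± 0.19 (limma adjusted p = 2.95e-05), at 698, 788 and 996 in KJ-PYR-9+DEX against 4239, 3733 and 3842 in KJ-PYR-9.

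CHAC1, which breaks down glutathione (-2.68), the leucine sensor SESN2 (-2.62) and the factor ATF4 (-0.64) fell. HMOX1, the haem oxygenase induced by oxidative stress, had 2830, 3088 and 2979 in KJ-PYR-9+DEX against 8238, 8788 and 9654 in KJ-PYR-9, a fall of 1.58 ± 0.14 (limma adjusted p = 5.76e-05). In DEX libraries it stood at 2578, 3407 and 3498 and in VEH at 3935, 3748 and 4494, so the KJ-PYR-9 libraries were above those of the 3 other groups by value. OSGIN1 (-1.68) and SQSTM1 (-1.02) were the other 2 of 26 NRF2 antioxidant genes that were lower, and none was higher by limma, edgeR or DESeq2 or at an unadjusted p under 0.05. The share of NRF2 genes called by limma was 11.5%, beside 7.55% of all genes tested.

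Heat shock genes had 3 of 18 lower and 0 higher by limma and edgeR, and 2 were higher by DESeq2 and at an unadjusted p under 0.05. By limma 16.7% of the list passed, beside 7.55% of all genes tested. HSPA1A, the inducible HSP70, had 608, 726 and 996 reads in KJ-PYR-9+DEX, against 4389, 1944 and 2602 in KJ-PYR-9. It fell by 1.88 ± 0.28 (limma adjusted p = 0.00173), and KJ-PYR-9 library 1 was well above the other 2. HSPA1B, a near identical copy whose reads cannot be told apart with certainty, fell by 2.04, and DNAJB1, their co-chaperone, by 1.33. GDF15, a stress hormone on the p53 target list, fell by 4.03 ± 0.78 (limma adjusted p = 0.00893) with wide spread: 347, 230 and 1519 in KJ-PYR-9+DEX against 6702, 6014 and 13355 in KJ-PYR-9. Of 25 p53 targets 6 were lower and 0 higher by limma, including PMAIP1 (-1.93) and BBC3 (-1.85), which promote cell death, and PLK2 (-1.71). By edgeR none was higher, by DESeq2 1, and at an unadjusted p under 0.05, 2. The share of p53 targets called by limma was 24.0%, beside 7.55% of all genes tested.

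Replication-dependent histone genes had 15 of 47 members lower by limma (median -0.66), and none was higher by limma, edgeR or DESeq2 or at an unadjusted p under 0.05. The 15 are 31.9% of the tested members, beside 7.55% called among all genes tested. With the replicate block 31 were lower, and without KJ-PYR-9 replicate 2 the count was 9. H2BC4 had 2154, 2637 and 2565 reads in KJ-PYR-9+DEX, against 5450, 5822 and 6241 in KJ-PYR-9, and fell by 1.25 ± 0.13 (limma adjusted p = 0.0002). VEH libraries held 1603, 1969 and 1849 reads of H2BC4. These genes share near identical sequence, and most of their transcripts lack a poly(A) tail. The libraries were made by depleting ribosomal RNA rather than by poly(A) selection.

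**Figure D3:**
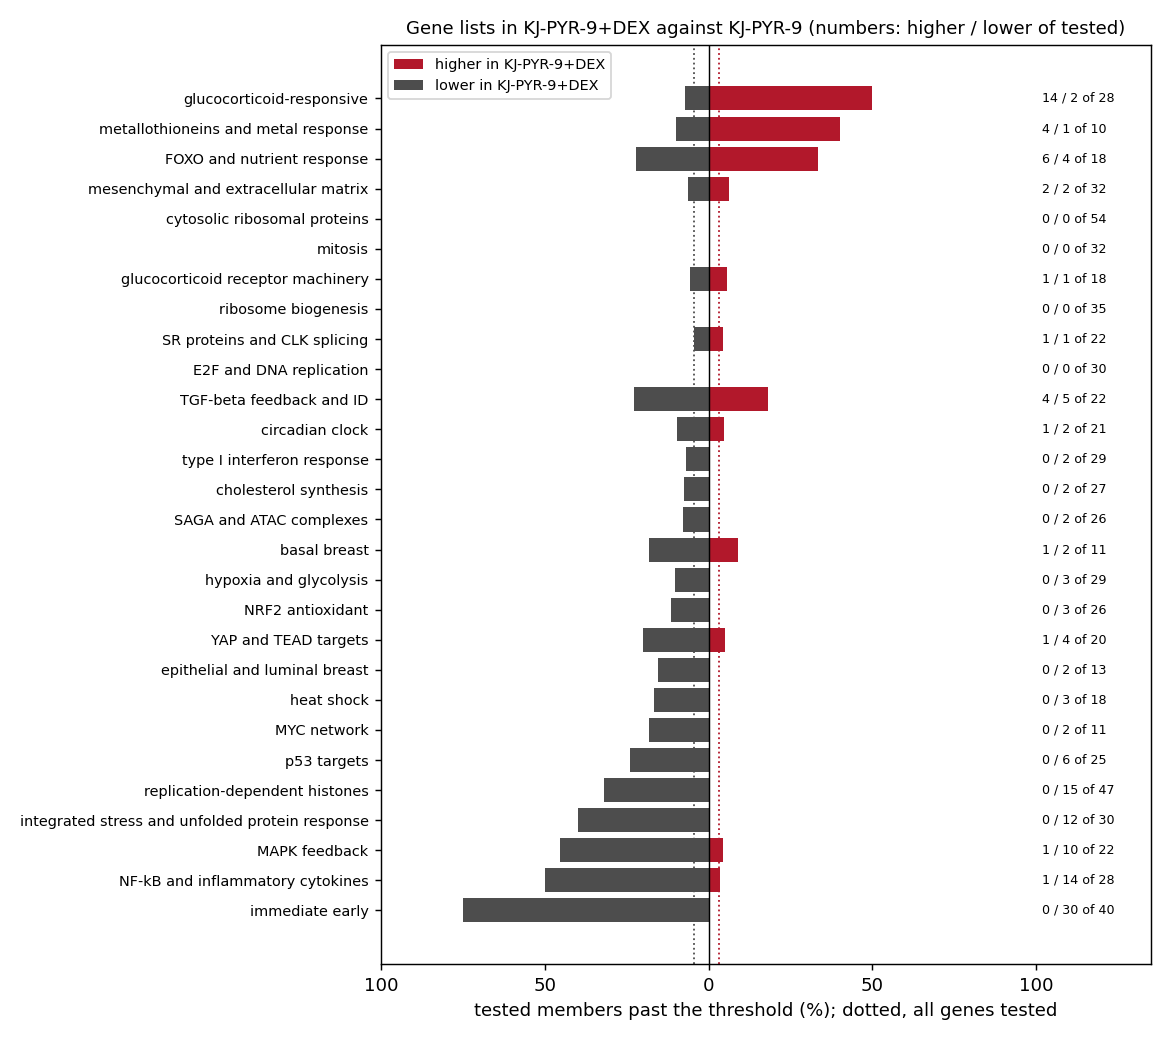
Share of tested members (%) of each gene list with at least 5 tested members that were higher (red, right) or lower (grey, left) in KJ-PYR-9+DEX against KJ-PYR-9; dotted lines mark the shares of all genes tested (3.17% higher, 4.38% lower). Immediate early genes reach 30 of 40 lower, and glucocorticoid-responsive genes 14 of 28 higher.

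Smaller groups moved in part. Of 22 TGF-beta feedback and ID genes 4 rose and 5 fell: TGFBR2, the type II receptor, rose by 1.66 ± 0.16 (limma adjusted p = 0.000106), at 2068, 1845 and 2500 in KJ-PYR-9+DEX against 591, 722 and 710 in KJ-PYR-9, while ID4 (-2.13) and the ligand TGFB2 (-1.17) fell. Among 20 YAP and TEAD targets 1 rose and 4 fell, with F3, tissue factor, up by 2.82 and DLC1 down (-1.72). Among 21 clock genes PER1 rose and BHLHE40 (-1.81) and NFIL3 (-1.80), both repressors, fell. Hypoxia genes had 3 of 29 lower, cholesterol synthesis 2 of 27, type I interferon response 2 of 29 and SAGA and ATAC complexes 2 of 26, with none higher in these 4 lists by limma. The shares called were 10.3%, 7.41%, 6.9% and 7.69%, beside the 7.55% of all genes tested. For the TGF-beta, the YAP and TEAD and the clock lists they were 40.9%, 25.0% and 14.3%. At an unadjusted p under 0.05, 2 hypoxia genes and 2 of the SAGA and ATAC complexes were higher, as in DESeq2, and edgeR called 1 of the SAGA and ATAC genes higher. ADM of the hypoxia list and OASL of the interferon list lost their calls under 8 and 9 of 25 alternatives. In the SAGA and ATAC list SUPT7L (-0.38) and SGF29 (-0.74) passed at adjusted p values of 0.0475 and 0.0485 by limma, and these calls were lost under 20 and 14 of 25 alternatives. In the TGF-beta list 1 gene rose without KJ-PYR-9 replicate 1 or 3 and 2 without KJ-PYR-9 replicate 2 or KJ-PYR-9+DEX replicate 1, and 2 of the YAP and TEAD targets fell without KJ-PYR-9 replicate 1 or 3 or KJ-PYR-9+DEX replicate 1.

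Genes of cell identity passed in both directions in the mesenchymal and basal lists, and only as lower in the epithelial and luminal list. The shares called were 12.5%, 27.3% and 15.4%, beside 7.55% of all genes tested. Of 32 mesenchymal and matrix genes 2 rose and 2 fell. The count that fell was 6 with the replicate block, 5 without KJ-PYR-9+DEX replicate 3, 1 without KJ-PYR-9+DEX replicate 1, and 0 without KJ-PYR-9+DEX replicate 2 or any 1 of the KJ-PYR-9 libraries. TWIST1, a factor of the mesenchymal state, rose by 0.94 ± 0.16 (limma adjusted p = 0.00414), at 4070, 4487 and 5917 in KJ-PYR-9+DEX against 2244, 2687 and 2542 in KJ-PYR-9. ZEB2 rose by 1.08, and SNAI1 and SNAI2 fell by 1.46 and 0.89, SNAI1 with its call lost under 5 of 25 alternatives. COL6A1, a collagen VI chain, had 5384, 5259 and 7460 in KJ-PYR-9+DEX against 7192, 7501 and 8073 in KJ-PYR-9, with overlap and a log2 fold change of -0.35 (limma adjusted p = 0.207). DEX libraries held 2883, 3223 and 3313 reads of COL6A1, against 3508, 3480 and 3729 in VEH, so by value both groups with the inhibitor were above both groups without it. Splicing genes had 1 of 22 higher, CLK4 (1.19), and 1 lower, CLK1 (-0.99), together 9.09% of the list. Of 11 basal breast genes KRT5 rose (3.02) and TP63 (-1.11) and FOXC1 (-1.99) fell, and of 13 epithelial and luminal genes ELF3 (-3.21) and XBP1 (-1.04) fell. The calls of KRT5, TP63 and ELF3, all at low levels, were lost under 3 of 20, 14 of 24 and 11 of 25 alternatives.

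**Figure D4:**
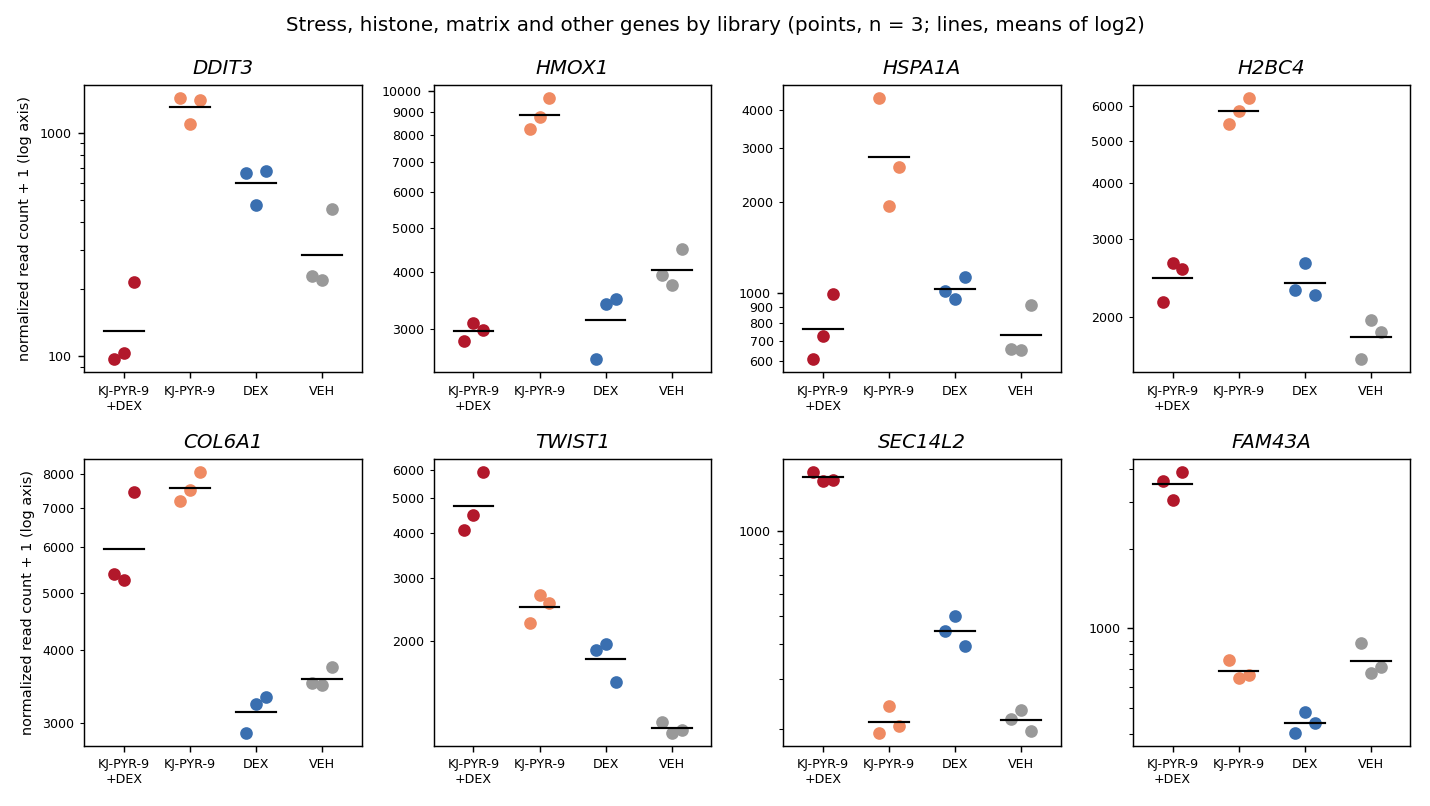
Normalized read counts plus 1 (log axes) of 8 stress, histone, matrix and other genes in every library, by group from KJ-PYR-9+DEX on the left to VEH on the right; points are libraries and lines are means on the log2 scale. HMOX1 and H2BC4 are highest in KJ-PYR-9, COL6A1 is high in both KJ-PYR-9+DEX and KJ-PYR-9, and SEC14L2 and FAM43A are highest in KJ-PYR-9+DEX.

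Some genes were highest where both agents were present. SEC14L2, a lipid-binding transfer protein, had 1621, 1503 and 1519 in KJ-PYR-9+DEX, against 193, 239 and 203 in KJ-PYR-9, and rose by 2.87 ± 0.14 (limma adjusted p = 1.3e-06). With DEX alone it stood at 442, 501 and 393 against 216, 231 and 195 in VEH, and its interaction was 1.82 (limma adjusted p = 0.000126). OSR1, ABLIM3 and STAB2 rose by 3.63, 3.39 and 3.05. OSR1 is a zinc finger developmental factor, ABLIM3 binds actin and STAB2 is a scavenger receptor for hyaluronan. STAB2 had 114, 97.9 and 80.6 in KJ-PYR-9+DEX against 11.9, 10.1 and 10.5 in KJ-PYR-9, with no overlap.

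Set beside DEX against VEH, the called genes went both ways. The 2 comparisons share no library, but both came from 1 fit with a pooled spread. Their calls are therefore not independent. Of the 431 higher genes, 101 were also higher in DEX against VEH, 125 were lower there and 205 were not called. Of the 597 lower genes, 240 were higher in DEX against VEH, 11 were lower and 346 were not called. DEX against VEH had 2386 genes past the threshold (17.5% of those tested), 1294 higher and 1092 lower. The 101 and 11 shared calls in 1 direction are 7.81% of its higher and 1.01% of its lower genes, and 23.4% of the 431 and 1.84% of the 597. The interaction passed for 2283 genes (16.8%), 973 positive (7.15%) and 1310 negative (9.62%), and contains the same difference that selected the 431 and 597 genes. It was called in 293 of the higher genes, 283 of them positive, and in 496 of the lower genes, all negative.

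**Figure D5:**
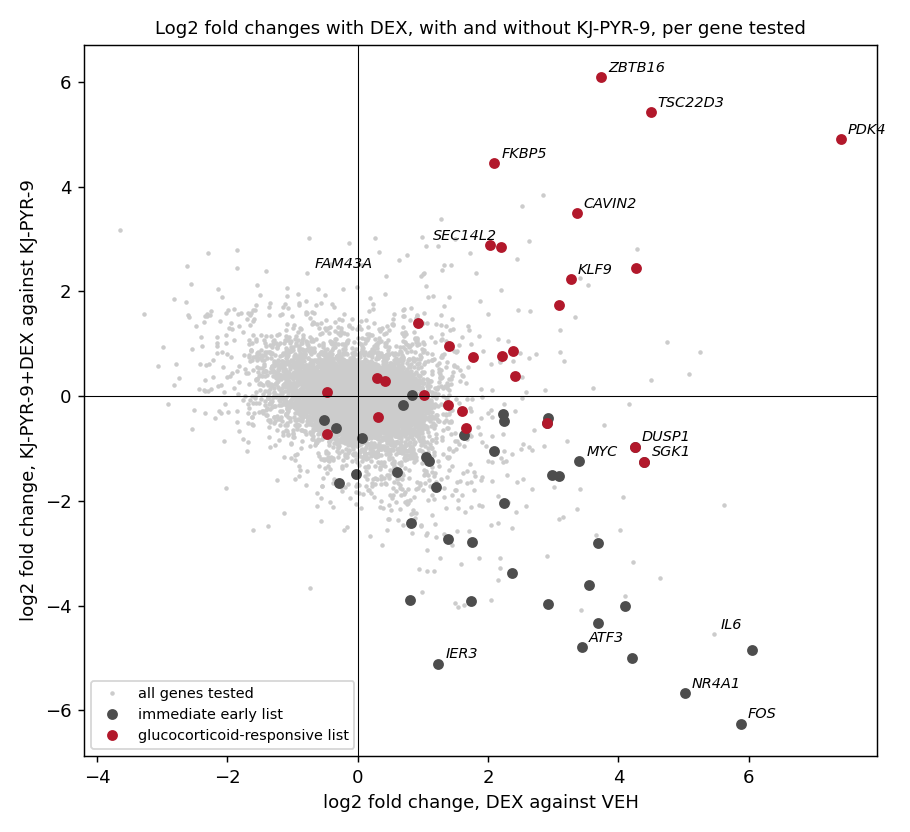
Log2 fold change of each tested gene in KJ-PYR-9+DEX against KJ-PYR-9 (vertical) and in DEX against VEH (horizontal), with the glucocorticoid-responsive list in red and the immediate early list in dark grey. ZBTB16, TSC22D3, FKBP5 and PDK4 lie high on both axes, and FOS, NR4A1 and ATF3 are high on the horizontal and low on the vertical axis.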

How the data were processed

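Total RNA of BT549 cells was depleted of ribosomal RNA, made into libraries with NEBNext kits and sequenced in pairs on a NovaSeq 6000, per the labels' protocols. Reads were handled with bcl2fastq, SAMtools, featureCounts and DESeq2 on the build GRCh38, per the submitters' processing notes. The aligner, the annotation, the strandedness and the tools' versions are not given in the sources used here, so overlapping genes on opposite strands may share reads. The deposited signal is a normalized read count per gene, scaled by the authors with DESeq2 per the submitters' processing notes. All values became whole reads within a tolerance of 0.0001 once divided by a factor per library, and these reads served the count tests.

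The table held 24290 features. Of these 6462 had no symbol and were left out of the tests, and 32 rows repeated a symbol and were summed, which left 17796 genes. A gene was tested where its mean over the 12 libraries of the experiment reached 10. The test was limma 3.58.1 (R 4.3.3) on log2(value + 1), two-sided, in 1 fit with a mean per group, with Benjamini-Hochberg adjustment over all 13616 genes and a threshold of 0.05. Errors are SE of the log2 fold change from groups of 3. The alternatives used edgeR 4.0.16, DESeq2 1.42.0, other scalings, pseudocounts, filters, variance models, and left-out libraries.

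The groups' replicate numbers paired the libraries: deviations of same-numbered libraries from their group means correlated in all 18 pairs (0.13 to 0.524), and at 0.184 to 0.524 in the 3 pairs of KJ-PYR-9+DEX with KJ-PYR-9. Blocked results stand beside those they change.

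The comparison, the gene lists and the named genes were chosen with earlier results of these data known. Named genes were the 10 largest rises and 10 largest falls among called protein-coding genes whose mean reached 50 and whose groups did not overlap, up to 3 called members of each list by smallest p, 5 genes at each end of the interaction, and MYC, MAX, NR3C1, FKBP5, TSC22D3, PER1, DUSP1, KLF9, ZBTB16, FOS, EGR1, NR4A1 and IL6. A gene that this rule named is not reported here. Other list members given as examples were chosen after their values were seen. Of 17796 genes 17513 matched RefSeq (GRCh38.p14), whose promoter table gave the sequences.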

Additional observations from a re-analysis of the deposited data

Results flagged for a closer look

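Of 79 named genes, 66 had a difference with DEX that itself differed between cells with and without KJ-PYR-9, by the interaction term in limma at an adjusted p under 0.05. Among all genes tested, 2283 passed that test (16.8%), with 9.62% negative and 7.15% positive. The interaction is the log2 fold change of KJ-PYR-9+DEX against KJ-PYR-9 minus that of DEX against VEH. Of the 66, 54 were negative and 12 positive. Most named genes were picked because KJ-PYR-9+DEX differed from KJ-PYR-9, a difference that the interaction contains. Some were picked for the interaction itself. The 66 of 79 and the split of 54 to 12 therefore follow in part from that choice. They do not measure how common such differences were.

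Immediate early, cytokine and MAPK feedback genes had strongly negative values: FOS -12.13, NR4A2 -10.90, NR4A1 -10.69, IL6 -10.01, EGR1 -9.20, ATF3 -8.23, CXCL2 -8.10, FOSB -8.03, CXCL8 -7.51, BTG2 -6.50, IER3 -6.35, DUSP1 -5.22, MYC -4.63 and DUSP6 -4.55. In all of these the difference was negative with the inhibitor and positive without it. The MAP kinase phosphatases DUSP10 and DUSP16 had -3.85 and -2.45, and the MYC network gene MXD1 had -2.18.

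Stress genes were negative too, with GDF15 at -5.57, DDIT3 at -4.40, PPP1R15A at -3.40, PMAIP1 at -3.25, HSPA1B at -2.81, HSPA1A at -2.38, OSGIN1 at -2.11, XBP1 at -1.99, PLK2 at -1.93, DNAJB1 at -1.74, HMOX1 at -1.21 and SQSTM1 at -0.89. The histones H2BC14, H2BC4 and H2BC18 had -1.99, -1.66 and -1.43. Genes of other kinds were ELF3 at -4.79, NFIL3 at -3.57, CITED2 at -3.52, SLC30A1 at -3.33, ANKRD37 at -3.10, FOXC1 at -3.07, SNAI1 at -2.59, TGFB2 at -2.57, ID4 at -2.53, CLK1 at -2.11, ADM at -2.10, DLC1 at -1.85, IFIT2 at -1.84 and BHLHE40 at -1.56. The remaining negative genes were ZEB2 at -1.07, SGF29 at -0.94, HSD17B7 at -0.87, PFKFB3 at -0.86 and SUPT7L at -0.48.

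Among 28 tested glucocorticoid-responsive genes 14 were negative and 2 positive. The negative ones included PDK4 at -2.50, KLF9 at -1.04 and PER1 at -1.02, although all 3 rose both with and without the inhibitor. The positive ones were ZBTB16 at 2.36 and FKBP5 at 2.36. Further positive values were ABLIM3 at 2.11, STAB2 at 2.06, SEC14L2 at 1.82, FOXO1 at 1.34 and TGFBR2 at 0.94. The most positive named genes were TRIM17 at 4.71, EGLN2 at 3.28, GPER1 at 3.23, MYH11 at 3.23 and SEMA4G at 3.21, each higher in KJ-PYR-9+DEX than in KJ-PYR-9 and lower in DEX than in VEH. The calls of ZBTB16, ABLIM3, SQSTM1, PFKFB3, TGFBR2, HSD17B7, ZEB2, SUPT7L and SGF29 were lost under at least 1 alternative. SUPT7L lost it under 19 of 24, SGF29 under 13 of 24, ABLIM3 under 13 of 23 and SQSTM1 under 12 of 24. For PFKFB3 it was 9 of 24, for ZBTB16 2 of 23, and for TGFBR2, HSD17B7 and ZEB2 1 of 24 each.

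Features without a gene symbol, which took no part in the tests, held 4.826%, 2.424% and 8.722% of the reads in KJ-PYR-9+DEX 1, 2 and 3, against 3.098%, 1.761% and 5.445% in KJ-PYR-9 1, 2 and 3. The share was 26.04%, 1.623% and 2.071% in DEX 1, 2 and 3, against 1.845%, 1.861% and 1.618% in VEH. KJ-PYR-9+DEX 3 was above every KJ-PYR-9 library, and DEX 1 and 3 were above every VEH library. Their part in the results was not tested beyond leaving out libraries.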

How the results depend on the processing

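The count for KJ-PYR-9+DEX against KJ-PYR-9 (1028) was 1555 once GC content and length trends were removed, 2018 with the replicate block and 1668 without DEX 1 and KJ-PYR-9+DEX 3 (chosen after seeing the data), and ran from 624 (without KJ-PYR-9 replicate 2) to 1224 (without KJ-PYR-9+DEX replicate 3) when 1 library was left out. For DEX against VEH (2386) it was 3737 in DESeq2, 1275 with GC content and length trends removed, 5925 with the replicate block and 865 (without DEX replicate 1) to 3940 (without KJ-PYR-9+DEX replicate 3) with 1 library left out. The interaction (2283) gave 4399 with the replicate block and 1469 (without KJ-PYR-9 replicate 1) to 2731 (without DEX replicate 3) with 1 library left out. The causes were not tested. Where leaving out 1 library left its group with 2, the spread was pooled over the 4 groups. Of 77 named genes called in the comparison, 65 kept the call under every alternative run and 12 lost it under at least 1, and none reversed: PER1, ADM, OASL, SNAI1, ELF3, KRT5, TP63, SUPT7L, SGF29, DUSP1, EGLN2 and SEMA4G. In KJ-PYR-9+DEX against KJ-PYR-9 the replicate block changed the call of NR3C1 and of no other named gene. The lower depth of the KJ-PYR-9+DEX libraries limits what can be said of genes with few reads.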

Other observations

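Genes outside the lists also stood apart in KJ-PYR-9+DEX, and the following were chosen after their values were seen. SIX2, a homeobox factor of the developing kidney, had 4577, 3980 and 5090 normalized reads in KJ-PYR-9+DEX, against 842, 993 and 835 in KJ-PYR-9 (log2 fold change 2.35, limma adjusted p = 5.74e-06). FAM43A had 3594, 3067 and 3911 in KJ-PYR-9+DEX against 757, 648 and 667 in KJ-PYR-9, while DEX libraries held 403, 484 and 437 against 883, 677 and 714 in VEH. The difference was thus positive with the inhibitor and negative without it, and its interaction was 3.12 (limma adjusted p = 5.26e-06). AHNAK, a very large scaffold protein, had 25147, 25516 and 22461 in KJ-PYR-9+DEX against 7765, 7601 and 7650 in KJ-PYR-9 (log2 fold change 1.67, limma adjusted p = 2.39e-05). The corepressor gene IRF2BPL rose by 2.08 and the homeobox gene IRX3 by 2.30.

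Lower genes outside the main account, also chosen after their values were seen, were of several kinds. HBEGF, a ligand of the EGF receptor, had 80.2, 43.8 and 51.1 reads in KJ-PYR-9+DEX, against 938, 749 and 870 in KJ-PYR-9 (log2 fold change -3.89, limma adjusted p = 8.59e-06). INHBA, an activin subunit, fell (-1.90), as did its binding protein FST (-2.62). The protocadherin PCDH18 (-2.50) stood below both KJ-PYR-9 and VEH, with 66.2, 58.7 and 51.1 in KJ-PYR-9+DEX, 373, 349 and 289 in KJ-PYR-9 and 551, 395 and 491 in VEH.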
